A study of Saccharomyces cerevisiae with 6 samples.

Results

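The cytosolic ribosomal protein (RP) genes were taken as all nuclear protein-coding genes of the R64 annotation whose symbol starts with RPL or RPS followed by a digit. This gave 132 of 6002 genes, of which 76 encode proteins of the large (60S) subunit and 56 proteins of the small (40S) subunit. Introns interrupt the coding sequence of 88 of them, and 44 are intronless. The RP genes include 57 pairs of A and B copies, or 114 genes, and 18 genes present once. The data are lists of Nic96 contact sites mapped by ChIP-seq, in which chromatin bound to a myc-tagged form of this scaffold nucleoporin of the NPC was recovered with an anti-Myc antibody and sequenced. The strains used here were haploid BY4742 derivatives (MATalpha his3delta1 leu2delta0 lys2delta0 ura3delta0) carrying the plasmid pRS313, and were grown at 25 °C and shifted to 37 °C for 15 min. The *wt* library came from Nic96-13myc-KanMX cells and was compared by the authors with untagged cells. The *tho* library came from Nic96-13myc-KanMX cells that also carried mft1::NatMX, the deletion of a subunit of the THO complex, and its untagged control carried mft1::KanMX. There was 1 library per condition, so no difference between *wt* and *tho* has a replicate check, and no test compares them. Peaks with a q-value under 0.05 were used, 993 in *wt* and 608 in *tho*, of which 571 lay on nuclear chromosomes. Neither list held such a peak on *MFT1* or *NIC96* (*NIC96* had a weaker *wt* peak), so the lists cannot show the deletion, and libraries at 25 °C were not analysed here. The number of reads behind the peaks is unknown, so that a gene without a peak is one with no contact detectable in these libraries.

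RP genes encode the protein components of the cytosolic ribosome, which assemble with ribosomal RNA in the nucleolus before export through NPCs. In growing yeast they are among the most strongly transcribed genes. Their promoters are bound by Rap1 and its partners Fhl1 and Ifh1, and their transcription falls transiently on heat shock. Most yeast genes lack introns, whereas most RP genes have one, so that they supply a large part of the spliced transcripts of the cell. The THO complex binds nascent transcripts, and the spliceosome likewise coats them. Both are known to limit the formation of R-loops, in which RNA anneals to its DNA template.

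In *wt* cells at 37 °C, 9 of the 132 RP genes were overlapped by a Nic96 peak by at least 1 bp (6.82%, exact binomial 95% confidence interval 3.16 to 12.5%), when 13.2% of all 6002 nuclear genes were. RP genes are short, with a median of 783 bp from start to stop codon (range 78 to 1662 bp) against 1227 bp for the other genes, and a longer gene offers more room for an overlap. When the other genes were weighted to the length classes of the RP genes, 6.51% of them held a *wt* peak (5.60 to 7.43%), a value inside the interval of the RP genes. The share of bases under *wt* peaks was 3.17% for RP genes and 3.13% for other genes of 400 to 1000 bp. At like length, the RP genes as a whole thus held *wt* contacts about as often as other genes. Intervals cover the counting of genes only, and neighbouring or duplicated genes are not independent.

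In *tho* cells 1 of the 132 RP genes was overlapped (0.758%, interval 0.0192 to 4.15%), when 7.46% of all nuclear genes were. Other genes weighted to the same lengths gave 6.09% (5.19 to 6.99%), a value above the interval of the RP genes. The *tho* list is the shorter one, and RP genes and other genes were read from the same list. The overlapped gene was *RPS0A*, and the overlap was limited to 70 bp at its 5′ end. No RP gene held the summit of a *tho* peak (0 of 132, exact interval up to 2.76%), when 4.70% of all nuclear genes and 2.75% of other genes of like length did, so that the latter value lies just inside the interval. RP gene bodies had 0.0702% of their bases under *tho* peaks, whereas other genes of 400 to 1000 bp had 3.07%. *RPS0A* was also the only RP gene with a peak in both lists (0.758%, interval 0.0192 to 4.15%). Peaks in both lists were found at 2.72% of all nuclear genes and at 1.04% of other genes of like length (0.677 to 1.41%). The like-length value lies inside the interval of the RP genes. The *wt* and *tho* peaks of *RPS0A* did not meet, since the former lay in the last part of the gene and the latter mainly before it.

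**Figure D1:**
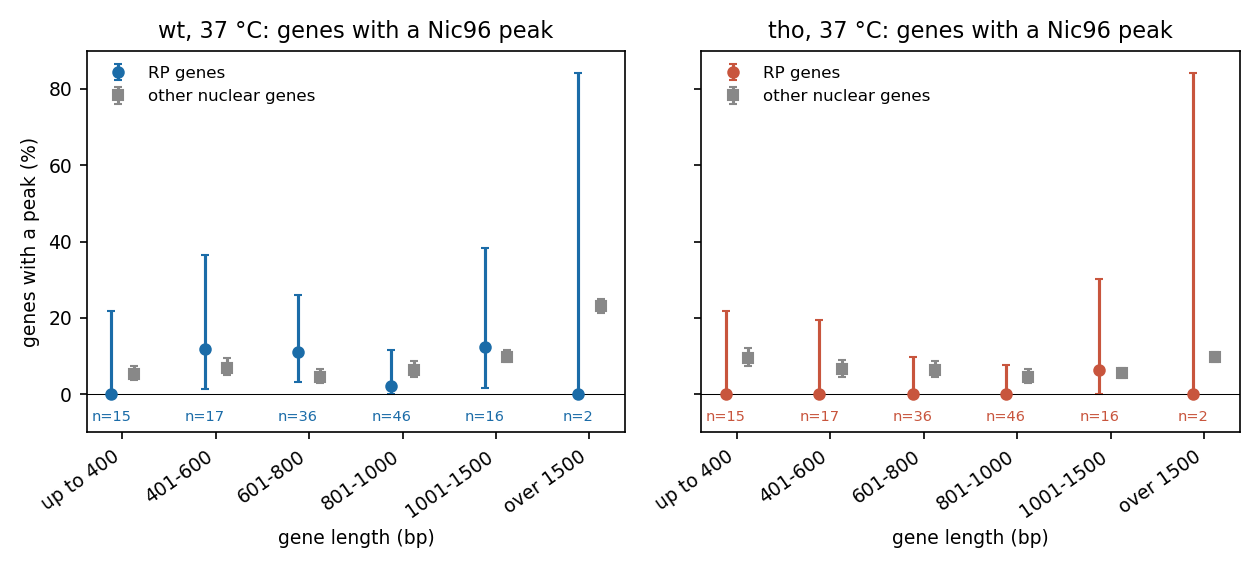
Percent of genes with a Nic96 peak (y axis) by gene length in bp (x axis) in the *wt* (left) and *tho* (right) lists, for RP genes (circles, number of genes below) and other nuclear genes (squares), with exact binomial 95% intervals. In *wt* the RP genes of over 600 and up to 800 bp stood at 11.1% and the other genes at 4.45%, whereas those of over 800 and up to 1000 bp stood at 2.17% and the other genes at 6.41%. In *tho* the only class with a called RP gene was that of over 1000 and up to 1500 bp.

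Among the *wt* contacts of RP genes, enrichment over the untagged library was highest at *RPL3*, which encodes a 60S protein that reaches towards the peptidyl transferase centre. *RPL3* (YOR063W) is an intronless gene present once, on chromosome XV from 444686 to 445849 on the forward strand. Its peak of 245 bp, from 444708 to 444952, was enriched 1.96-fold (−log10 q 4.86) and covered 21.0% of the gene, its summit lying 134 bp after the start of the start codon. The sequence at this summit, shown because it is the most enriched point on any RP gene, has the summit base in capitals:
RPL3 (chrXV:444760-444880, forward strand): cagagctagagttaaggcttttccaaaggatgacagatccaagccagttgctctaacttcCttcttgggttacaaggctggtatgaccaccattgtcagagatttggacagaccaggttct
*RPL5* (YPL131W, chromosome XVI, 303121 to 304014, forward strand) encodes the 60S protein that binds 5S ribosomal RNA and is likewise intronless and present once. It held a peak of 376 bp over 42.1% of its length, enriched 1.91-fold (−log10 q 3.29). These were the only *wt* contacts among the 18 RP genes without a second copy.

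The remaining 60S contacts were on intronless genes that have a second copy. *RPL8B* (YLL045C, chromosome XII, 47859 to 48629, reverse strand) held the widest of the *wt* peaks on RP genes, 597 bp, which took up 77.4% of its length and was enriched 1.88-fold (−log10 q 3.47). *RPL12A* (YEL054C, chromosome V, 52721 to 53218, reverse strand), which encodes a protein at the base of the ribosomal stalk, was covered over 70.3% of its length by a peak of 350 bp, enriched 1.86-fold (−log10 q 2.63). The *RPL12A* summit lay 74 bp after the start of the start codon, the nearest to it among these genes. *RPL24B* (YGR148C, chromosome VII, 787312 to 787779, reverse strand) held a peak of 241 bp over 51.5% of its length, enriched 1.71-fold (−log10 q 1.82).

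Among the 40S genes, *RPS1A* (YLR441C, chromosome XII, 1018141 to 1018908, reverse strand) held a peak of 283 bp over 36.8% of the gene, with its summit at 87.1% of the gene length. It was enriched 1.81-fold (−log10 q 2.42). *RPS8A* (YBL072C, chromosome II, 88523 to 89125, reverse strand) was the RP gene with the largest share of its length covered, 85.1%, under a peak of 513 bp, and had the lowest enrichment of these genes, 1.59-fold (−log10 q 2.10). Both genes are intronless. The intron-containing genes with a contact, *RPS14A* and *RPS0A*, also encode 40S proteins. *RPS14A* (YCR031C, chromosome III, 177500 to 178220, reverse strand), whose product lies on the platform of the subunit, held a peak of 229 bp, enriched 1.64-fold (−log10 q 1.82). *RPS0A* (YGR214W, chromosome VII, 920575 to 921788, forward strand), whose product is needed for maturation of the subunit, held a peak of 331 bp, enriched 1.61-fold. Its q-value of 0.0496 made it the contact closest to the threshold. Its summit lay at 92.0% of the gene length, the nearest to the 3′ end among these genes.

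**Figure D2:**
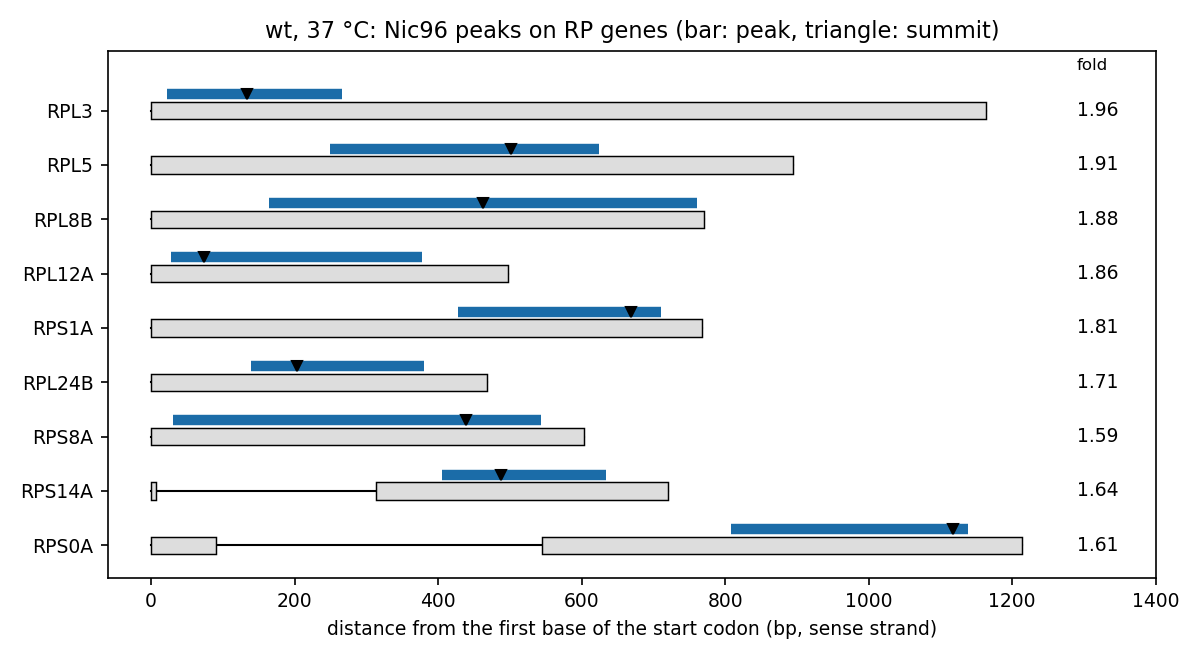
The 9 RP genes with a *wt* peak, drawn to scale from the start codon (x axis, bp) with coding exons as boxes and introns as lines, peaks as bars, summits as triangles and fold enrichments at the right. Every peak lies inside its gene, and the peaks of the intron-containing genes *RPS14A* and *RPS0A* (bottom) lie in exon 2.

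All 9 *wt* peaks lay wholly within the RP gene they overlapped and touched no other gene. They were spread over 7 chromosomes. Their summits fell in the first 50% of the gene in 3 cases and later in 6. The *wt* contacts were on 5 of 76 60S genes (6.58%, interval 2.17 to 14.7%) and 4 of 56 40S genes (7.14%, interval 1.98 to 17.3%), with intervals that overlap almost entirely. The coding sequences of the RP genes with a contact ranged from 414 bp in *RPS14A* to 1164 bp in *RPL3*, with a median of 759 bp, against a median of 432 bp for the 123 RP genes without a *wt* peak. None of the 48 RP genes with at most 400 coding bp held one. Among other nuclear genes of up to 400 bp from start to stop codon, 33 of 611 did (5.40%). The difference was not tested.

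The study contrasted intronless with intron-containing genes because introns limit R-loops, and the RP genes fall into both groups. That contrast measured Nic96 occupancy over highly expressed genes of like transcription rate, and was reported before the heat shock experiments. The counts below are peak calls over all RP genes in heat-shocked cells, so they do not repeat that contrast. In *wt* 7 of 44 intronless RP genes held a peak (15.9%, interval 6.64 to 30.1%) and 2 of 88 intron-containing RP genes did (2.27%, interval 0.276 to 7.97%). The intervals overlap between 6.64 and 7.97%, and the difference was not tested. The intronless genes with a contact were 5 of 24 60S genes (20.8%, interval 7.13 to 42.2%) and 2 of 20 40S genes (10.0%, interval 1.23 to 31.7%), and the intron-containing ones were 0 of 52 60S genes (interval up to 6.85%) and 2 of 36 40S genes (5.56%). Other genes weighted to the lengths of each group gave 5.82% and 6.85%. The intronless share lay above its like-length value, which falls just outside the interval of that group. The intron-containing share lay below its like-length value, but that value is inside the interval of the group. Weighting by coding length gave 6.06% and 6.16%. Intron-containing RP genes have shorter coding sequences. Among RP genes with more than 400 coding bp the shares were 7 of 29 (24.1%) without and 2 of 55 (3.64%) with an intron. This limit left out only genes without a *wt* peak, 15 intronless and 33 intron-containing, so both shares rise by it. No share of other genes is set beside them. In *tho* the counts were 0 of 44 intronless genes (interval up to 8.04%) and 1 of 88 intron-containing genes (1.14%, interval 0.0288 to 6.17%). Other genes of like length stood at 7.40% and 5.44%, each inside the interval of its group. Weighted by coding length they stood at 7.32% and 7.56%, the latter above the interval of the intron-containing genes. Of the bases of intronless RP genes, 11.2% lay under *wt* peaks, against 0.732% of those of intron-containing RP genes. At q under 0.01, where 8.85% of all nuclear genes held a *wt* peak, the counts were 6 of 44 and 0 of 88. At least 50% of the length was covered at 4 of the 132 RP genes (3.03%), all of them intronless. To that extent 2.12% of all nuclear genes and 2.60% of other genes of like length were covered. Intronless RP genes are the shorter, with a median of 512 bp against 852 bp for intron-containing ones. No share of other genes by this rule is set beside each group. The data hold no measure of transcription, so the part of transcription level in this difference was not tested.

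**Figure D3:**
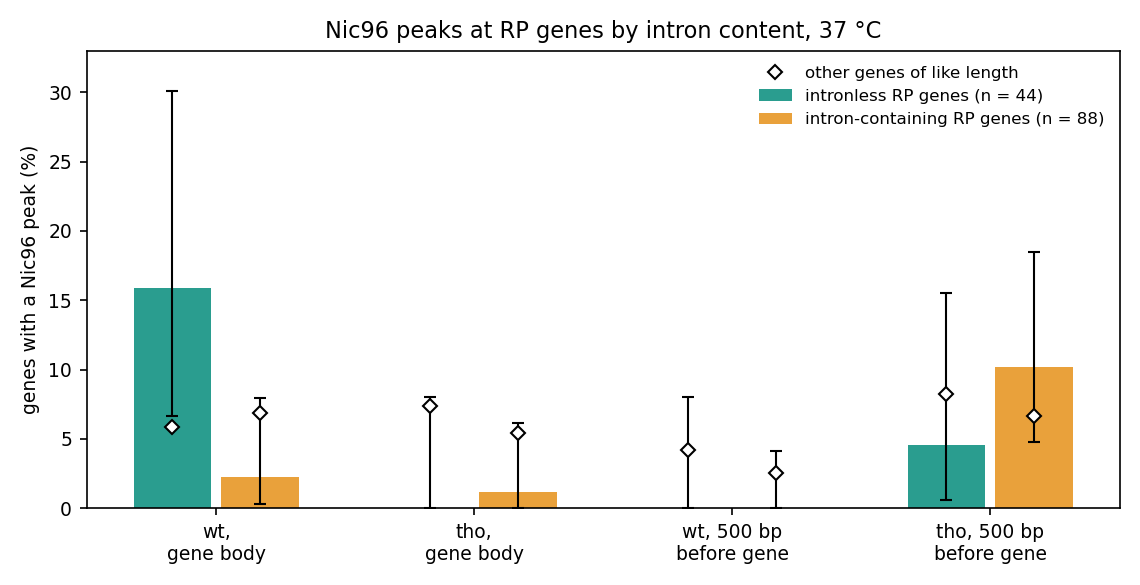
Percent of intronless (n = 44) and intron-containing (n = 88) RP genes with a Nic96 peak on the gene body or in the 500 bp before the start codon (bars, y axis starting at 0) in *wt* and *tho*, with exact binomial 95% intervals and the share of other genes of like length (diamonds). The intronless bar on *wt* gene bodies, 15.9%, is the highest, and the bars for *tho* bodies of intronless genes and for *wt* upstream regions are at 0.

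None of the peaks on RP genes reached an intron. The 90 introns of the 88 genes, of 147 to 561 bp and a median of 408 bp, made up 36786 of the 99696 bp of RP genes. Of these intron bases, 0 bp lay under *wt* or *tho* peaks. In the same 88 genes 560 of the 39717 coding bp lay under *wt* peaks, all from the peaks on *RPS0A* and *RPS14A*. The absence from introns thus rests on few peaks and was not tested. Over all RP genes 3165 of the 62910 coding bp lay under *wt* peaks, 2605 bp of them in intronless genes. The intron of *RPS0A* is 455 bp and that of *RPS14A* 307 bp. Yeast introns carry nearly fixed letters at the 5′ splice site and the branch point, and in the RP genes GTATGT opened 67 of the 90 introns, TACTAAC was found in 84, and all 90 ended in AG. Both introns next to a *wt* contact carry these letters in full. The junctions are shown as the sequence feature that sets these genes apart from the intronless ones, with the letters in capitals:
RPS0A 5′ junction (chrVII:920655-920674, forward strand): aaacgttcaaGTATGTtata
RPS0A 3′ junction (chrVII:921060-921129, forward strand): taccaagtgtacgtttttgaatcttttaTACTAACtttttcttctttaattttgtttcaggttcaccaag
RPS14A 5′ junction (chrIII:178204-178223, reverse strand): gccatgtctaGTATGTttaa
RPS14A 3′ junction (chrIII:177897-177966, reverse strand): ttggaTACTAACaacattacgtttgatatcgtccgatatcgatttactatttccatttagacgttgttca

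Of the 57 pairs of copies, 7 had a *wt* peak on 1 copy, 50 on neither and 0 on both. A *wt* peak lay on 7 of the 114 paired genes (6.14%), against 6.57% of other genes of like length. With so few called genes, 0 pairs called at both copies is a count that independent calls could also give. Whether contacts on copies go together was not tested. The copies are close to each other in sequence, with a median coding identity of 93.2% (range 78.9 to 99.4%), and reads were kept by the authors only where they matched perfectly, so copies that are identical over a read of 75 bases cannot be told apart by that read. This bears on *RPS8A*, of which 73.9% of all 75-mers occur again in the genome, and 75.6% of those under its peak. The other 75-mers under the peak occur once, but whether reads there place the contact on *RPS8A* is not known from the peak list. Over the 121 bases around its summit *RPS8A* does not differ from *RPS8B*, so a read within them cannot by itself be assigned to either copy:
RPS8A (chrII:88626-88746, reverse strand): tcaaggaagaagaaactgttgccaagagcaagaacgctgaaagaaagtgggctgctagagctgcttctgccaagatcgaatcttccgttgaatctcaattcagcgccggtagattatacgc
RPS8B (chrV:363479-363599, forward strand): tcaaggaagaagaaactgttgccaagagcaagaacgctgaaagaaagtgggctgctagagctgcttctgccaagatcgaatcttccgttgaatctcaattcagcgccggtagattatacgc
It does not bear on *RPL12A*, where 0% of the 75-mers under the peak occur again. Here 14 bases of the same window differ from *RPL12B*, shown in capitals, and the longest identical run is 21 bases:
RPL12A (chrV:53084-53204, reverse strand): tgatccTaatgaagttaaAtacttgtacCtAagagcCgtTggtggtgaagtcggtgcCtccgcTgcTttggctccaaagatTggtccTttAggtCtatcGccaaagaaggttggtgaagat
RPL12B (chrIV:1301630-1301750, forward strand): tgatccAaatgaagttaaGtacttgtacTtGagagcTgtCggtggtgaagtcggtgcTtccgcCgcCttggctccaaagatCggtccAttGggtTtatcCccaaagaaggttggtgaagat
*RPS14A* is intermediate, with 11.6% of the 75-mers under its peak repeated. It differs from *RPS14B* at 5 bases, all before the summit, which is base 61 of the window, and is identical over a run of 77 bases:
RPS14A (chrIII:177672-177792, reverse strand): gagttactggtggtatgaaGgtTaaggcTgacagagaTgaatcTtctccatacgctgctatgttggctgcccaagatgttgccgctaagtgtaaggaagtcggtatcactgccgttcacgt
RPS14B (chrX:74319-74439, forward strand): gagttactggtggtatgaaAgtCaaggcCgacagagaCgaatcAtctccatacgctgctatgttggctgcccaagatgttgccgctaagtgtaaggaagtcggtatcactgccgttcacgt
For *RPL8B* the share under the peak was 3.25%, and for *RPL3*, *RPL5*, *RPL24B*, *RPS0A* and *RPS1A* it was 0%. In all, 82 of the 132 RP genes held no repeated 75-mer and 8 held more than 50%. Without those 8 genes, an alternative chosen after seeing the data, 8 of 124 RP genes had a *wt* peak, 6 of 36 intronless and 2 of 88 intron-containing.

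Within the *wt* list, the contacts of RP genes were of ordinary strength. Their median fold enrichment was 1.81 (interval from ranks 1.61 to 1.91) and that of the 984 other peaks 1.76 (1.74 to 1.78). They ranked between 206 and 835 of 993 by fold enrichment, *RPL3* being the best placed and *RPS8A* the last. Their median width was 331 bp (interval 241 to 513 bp) against 386 bp. None of the 9 was over 1000 bp, and among the other *wt* peaks 43 of 984 (4.37%) were.

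**Figure D4:**
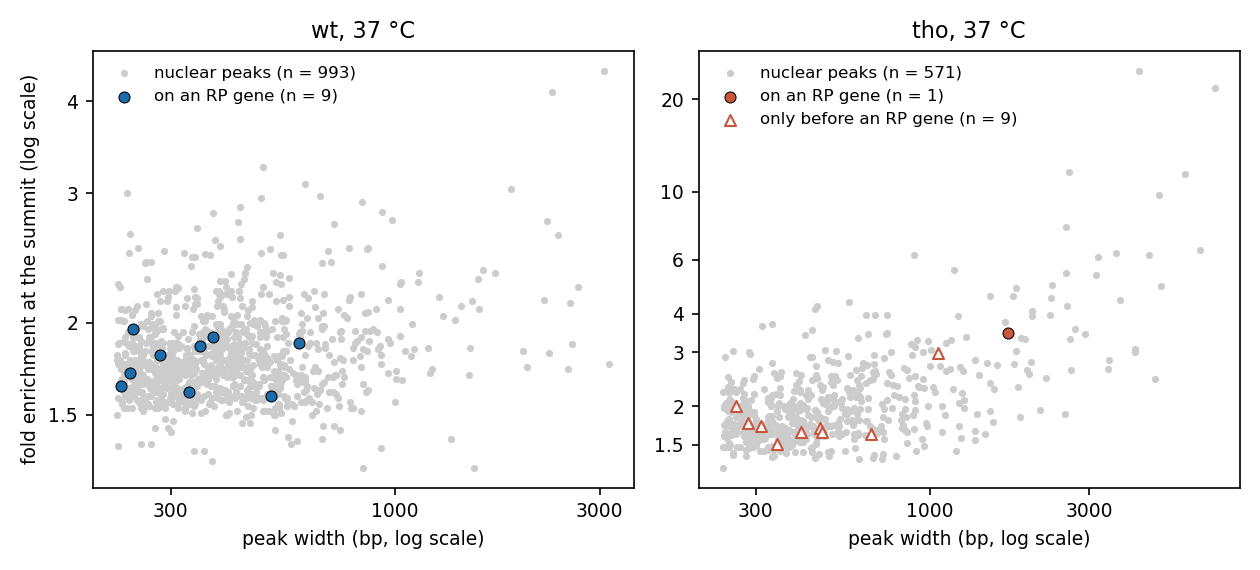
Fold enrichment at the summit against peak width (bp), both on log scales, for nuclear peaks with q under 0.05 (grey) in *wt* (left) and *tho* (right). Filled circles mark peaks on an RP gene and open triangles peaks that lie only in the 500 bp before one. The 9 *wt* peaks on RP genes sit between 1.59 and 1.96, within the bulk of the list.

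In *tho*, more RP genes had a peak before the start codon than on the body. A window of 500 bp before the start codon was examined, chosen after the peaks had been seen. It held a *tho* peak at 11 of 132 RP genes (8.33%, interval 4.23 to 14.4%), a share near that of all nuclear genes, 7.71%, and of other genes of like length, 7.17%. In *wt* it held a peak at 0 of 132 RP genes (interval up to 2.76%), when 2.90% of all nuclear genes and 3.08% of other genes of like length had one. In a window of 1000 bp the counts were 6 RP genes in *wt*, when 6.53% of all nuclear genes had a peak there, and 12 in *tho*, when 9.56% had one. By intron content, 2 of 44 intronless (4.55%) and 9 of 88 intron-containing RP genes (10.2%) had a *tho* peak upstream, with intervals of 0.555 to 15.5% and 4.78 to 18.5%. Other genes of like length stood at 8.25% and 6.63%, each inside the interval of its group. The order of the RP shares is opposite to that of *wt* gene bodies. Neither share is set apart from its like-length value, and no test was made.

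The 11 genes shared 10 distinct *tho* peaks, because 1 peak of 412 bp on chromosome XIII lay between the divergent genes *RPL13B* and *RPS16A*. The most enriched was the peak of 1714 bp before *RPS0A* (chromosome VII, 918931 to 920644), enriched 3.46-fold (−log10 q 33.6). Its summit lay 842 bp before the *RPS0A* start codon in no annotated gene, and it also covered 56.1% of the divergent neighbour *RTA1*. The peak before *RPS4A* (chromosome X, 703165 to 704224) was 1060 bp wide and enriched 2.99-fold (−log10 q 29.5). It stopped 96 bp short of the start codon and covered 96.0% of the small reading frame YJR146W. The B copy *RPS4B* also had a *tho* peak upstream, of 311 bp and a fold enrichment of 1.72, and this was the only pair of copies with upstream peaks at both. Before *RPL19A* lay a peak of 262 bp with a fold enrichment of 2.0, and before *RPL38* one of 285 bp with 1.77. The remaining upstream peaks had fold enrichments of 1.51 before *RPL36B*, 1.62 before *RPL31B*, 1.65 between *RPL13B* and *RPS16A*, 1.65 before *RPS10A* and 1.70 before *RPS3*. The summit lay in no gene at 9 of the 10 peaks and in *GYP5* at the peak before *RPL36B*. None of the 10 touched a tRNA gene. The median fold enrichment of the 10 peaks was 1.71, against 1.89 for all nuclear *tho* peaks. *RPS0A* was the only gene with both a *wt* peak on its body and a *tho* peak upstream.

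**Figure D5:**
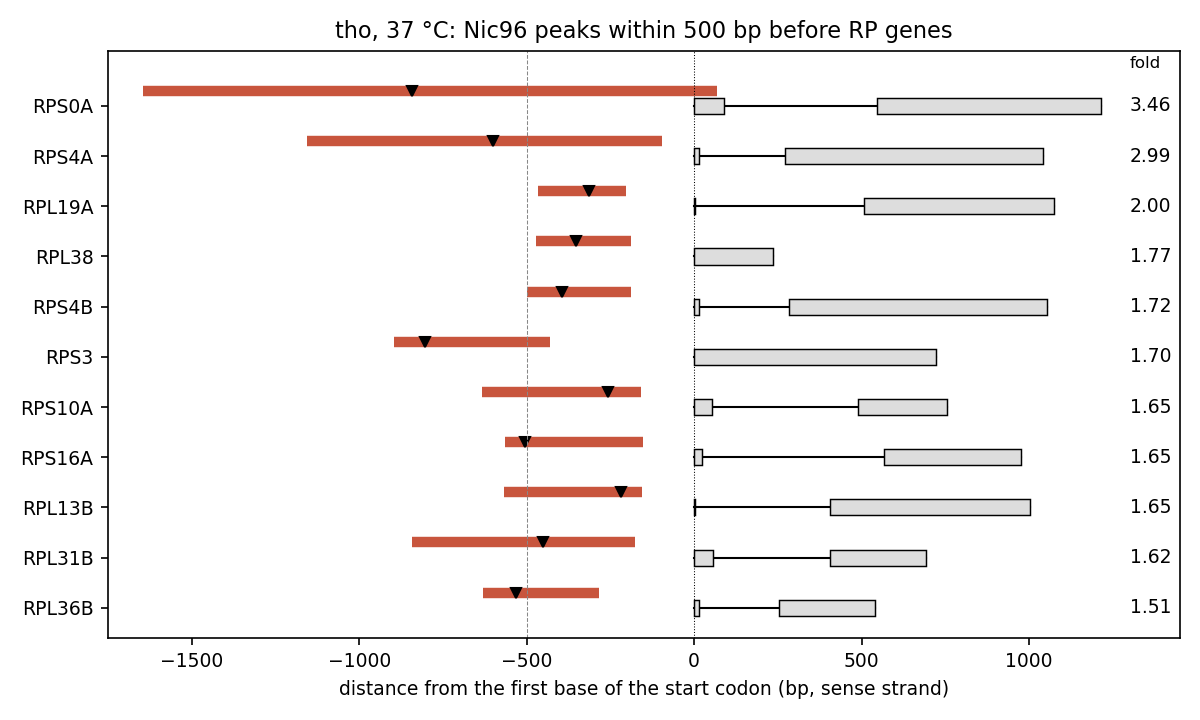
The 11 RP genes with a *tho* peak in the 500 bp before the start codon (dashed line at the limit), drawn to scale from the start codon (x axis, bp) with coding exons as boxes, introns as lines, peaks as bars, summits as triangles and fold enrichments at the right. The *RPS0A* peak alone reaches the gene, by 70 bp, and every summit lies before the start codon.

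Rap1 binds RP promoters, and letters of the Rap1 type, ACCCNNACA on either strand, were sought in the 500 bases before each start codon. They were found at 53 of 132 RP genes (40.2%, interval 31.7 to 49.0%) and at 329 of all 6002 genes (5.48%). Of the 10 *tho* peaks before RP genes, 6 held these letters, whereas 37 of all 571 nuclear *tho* peaks did (6.48%) and 35 of 993 nuclear *wt* peaks (3.52%). The 11 genes with such a peak had the letters in their 500 bases in 7 cases, against 46 of the 121 other RP genes (38.0%), and the intervals of these shares, 30.8 to 89.1% and 29.3 to 47.3%, overlap. The RP genes with a *wt* peak had them in 2 of 9 cases. Matches are shown for the peaks before 5 of the genes, on the strand of the gene and with the matching letters, or their reverse complement, in capitals:
RPL13B (chrXIII:551510-551558, reverse strand): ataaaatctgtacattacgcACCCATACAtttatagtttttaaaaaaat
RPL36B (chrXVI:76525-76573, reverse strand): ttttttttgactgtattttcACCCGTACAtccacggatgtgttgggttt
RPL38 (chrXII:781620-781668, reverse strand): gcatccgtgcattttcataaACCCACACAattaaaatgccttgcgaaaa
RPS10A (chrXV:866738-866786, forward strand): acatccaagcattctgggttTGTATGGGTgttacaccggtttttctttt
RPS4B (chrVIII:505970-506018, reverse strand): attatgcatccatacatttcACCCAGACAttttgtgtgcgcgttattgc
The summits lay 110 bp from the centre of the match shown at *RPL13B*, 222 bp at *RPL36B*, 88 bp at *RPL38*, 80 bp at *RPS10A* and 70 bp at *RPS4B*. Matches not shown lay 201 bp from the summit in the *RPL13B* peak, and 345 and 363 bp from it in the *RPS0A* peak. None of these summits coincided with a match.

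A few RP genes carried peaks that missed the threshold. In *wt*, *RPL13A* had a peak of 313 bp in exon 2 with a fold enrichment of 1.52 and a q-value of 0.0884, and *RPL3* had a second peak of 392 bp with 1.41 and 0.178. In *tho*, *RPS17B* had a peak of 288 bp with a fold enrichment of 1.41 and a q-value of 0.0750 that reached 116 bp into the gene, 113 bp of it intron. Just inside the threshold in *wt* stood *RPS0A*, and then *RPL24B* and *RPS14A* with a q-value of 0.0151 each. With all deposited peaks, 10 RP genes had a *wt* peak, when 16.3% of all nuclear genes did, and 2 had a *tho* peak, when 8.21% did. At q under 0.01 the *tho* count remained 1, with 6.96% of all nuclear genes called. With an overlap of at least 100 bp it was 0 in *tho* and 9 in *wt*, with 6.90% and 13.1% called, and with 50% of the gene covered it was 0 in *tho*, with 2.63% called. A *wt* summit inside the gene was found at 9 of the 132 RP genes (6.82%), when 12.7% of all nuclear genes had one.

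Other genes of the translation machinery and of RP gene control were counted by the same rule, with the shares of all nuclear genes given above as the background. Of the 5 genes of the P-stalk, acidic proteins that bind elongation factors on the 60S subunit, *RPP0* (fold enrichment 1.65) and *RPP2B* (1.67) held a *wt* peak and none held a *tho* peak. Other genes of like length held a *wt* peak in 5.41% of cases, inside the wide interval of these 5 genes (5.27 to 85.3%). Of 10 genes for elongation factors, *EFB1*, *HYP2* and *YEF3* held a *wt* peak, with fold enrichments of 1.46, 1.87 and 1.58. *ANB1*, the counterpart of *HYP2* that is expressed without oxygen, held a *tho* peak (1.63). Like-length shares for these 10 genes were 14.3% in *wt* and 7.32% in *tho*. Both lie inside the intervals of the 10 genes, 6.67 to 65.2% and 0.253 to 44.5%. Of 7 regulators of RP gene transcription, *FHL1*, *IFH1*, *RAP1* and *SFP1* held a *wt* peak, with fold enrichments of 1.58, 2.11, 1.99 and 1.89 in that order, and *HMO1* a *tho* peak (1.65). These regulator genes have a median length of 2475 bp, and other genes weighted to the length classes of the 7 held a *wt* peak in 18.6% of cases. The 67 genes for mitochondrial ribosomal proteins have a median of 699 bp, close in length to the RP genes. They held a *wt* peak in 0 cases (interval up to 5.36%) and a *tho* peak in 3 (4.48%, interval 0.933 to 12.5%), *MRP1*, *MRP7* and *MRPL4*. Other genes of like length stood at 6.71% in *wt*, above the interval of these genes, and at 6.51% in *tho*, inside it. Among the 183 intron-containing genes that are not RP genes, 27 held a *wt* peak (14.8%, interval 9.95 to 20.7%) and 10 a *tho* peak (5.46%). Genes of like length stood at 10.6% and 6.98%. Of these genes 14 lie within 20000 bp of a chromosome end, *YRF1-3*, *YRF1-6* and *YRF1-7* among them, where 11 held a *wt* peak and 7 a *tho* peak, while no RP gene lies there. For the 169 others, a division made after seeing the data, the *wt* share was 9.47% (16 genes, interval 5.51 to 14.9%), with genes of like length at 9.87%. This interval overlaps that of the intron-containing RP genes, 0.276 to 7.97%. Their *tho* share was 1.78% (3 genes, interval 0.368 to 5.10%), with genes of like length at 6.84%.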

How the data were processed

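The Nic96 peak lists of *wt* and *tho* at 37 °C were analysed, 2 of the 6 samples of the series. Per the methods of the authors, paired-end reads were aligned to sacCer3 (Bowtie2, perfect matches only), freed of duplicates (SAMTools rmdup) and, as normalized fragments, passed to MACS2. The names of the deposited lists give the untagged library of the same strain type as the control, which the methods do not state for peak calling. The authors deposited the fold enrichment at each summit as a ratio over that control. They also deposited −log10 values of p and q (q-value) and a score, the latter not used. A q-value under 0.05 was applied here, as in the methods, since weaker peaks are also listed. Depth is not known from these files, and its effect on precision was not measured.

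Peak starts were converted to count from 1. Genes, from start to stop codon, and coding exons came from the R64 annotation, with gaps of at least 10 bp taken as introns and untranslated exons not considered. A gene was called when a peak overlapped it by at least 1 bp. Other genes were weighted to the RP genes' lengths in classes bounded at 400, 600, 800, 1000 and 1500 bp, with intervals from the binomial variance of each class. Other intervals are exact binomial (Clopper-Pearson, 95%), and those of medians come from ranks. No test was made. A 75-mer was counted as repeated when found elsewhere on either strand. Copies were aligned globally with Biopython 1.88, and positions in genes count from 0 at the start codon. Python 3.11.15, numpy 2.4.6, pandas 2.3.3, scipy 1.17.1 and matplotlib 3.10.9 were used, and the overlap code was tested on simulated peaks. Sequences are those of RefSeq R64.

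The RP genes and the gene lists were chosen with earlier results of these data known. Genes named are those with a peak on the body or beside it, those nearest to the threshold, the called genes of the lists, and *MFT1* and *NIC96*. Alternatives covered the q-value, the overlap rule, the window and the matching of length.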

Additional observations from a re-analysis of the deposited data

How the results depend on the processing

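With 1 library per condition no replicate could be left out, and no paired analysis was possible because each group holds 1 sample. All deposited peaks gave 10 RP genes in *wt* and 2 in *tho* (2 intron-containing), with 3.88% and 0.187% of RP bases covered, and other genes of like length at 8.08% in *wt*. At q under 0.01, 6 RP genes were called in *wt*, 0 of them intron-containing, with 0 in both lists, 2.37% of RP bases covered and like-length genes at 3.69%. When peaks had to cover 50% of the gene, 4 RP genes were called in *wt*, 4 intronless and 0 intron-containing, against 2.60% of like-length genes, and 0 in *tho*, 0 intron-containing and 0 in both lists, against 3.22%. When the summit had to lie in the gene or the overlap had to reach 100 bp, *tho* and both lists had 0 RP genes, 0 intron-containing, and summits gave 2.75% of like-length genes in *tho*. Weighting by coding length gave 7.48% in *tho*. A window of 1000 bp before the start codon held a *wt* peak at 6 RP genes and a *tho* peak at 12. Without genes near chromosome ends, 16 other intron-containing genes had a *wt* peak and 3 a *tho* peak. The other alternatives moved counts by at most 1.5 times and other values within their intervals. The intronless share in *wt* exceeded the intron-containing share under every threshold and overlap rule tried.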

Other observations

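The RP genes were not isolated from Nic96 contacts on the chromosome. The nearest *wt* peak lay at a median distance of 5048 bp (quartiles 1823 and 11390 bp) from an RP gene and of 4857 bp from other genes of 400 to 1000 bp, and the nearest *tho* peak at 10217 and 10226 bp. Within the RP genes the *wt* median was 2401 bp for intronless and 6838 bp for intron-containing genes, and the distance is 0 for a gene under a peak. A peak lay on or within 500 bp of 10 RP genes in *wt* and 13 in *tho*. In either list, 113 of 132 had a peak neither on the body nor in the 500 bp before the start codon. No share of other genes by these rules is set beside these counts, so they are not read as high or low.

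Peaks within 500 bp after the stop codon are listed without a share of other genes, so their number is not read as high or low. In *wt* the only one was a peak of 913 bp after *RPS30B*, with a fold enrichment of 1.84 and its summit in the neighbouring *LAS17*. In *tho* they followed *RPL36B*, *RPL43B* and *RPS7B*, with fold enrichments of 1.43, 1.67 and 1.65, and the summit after *RPS7B* lay in a tRNA gene.

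RP genes with a *wt* peak had a median GC content of 42.9% (n = 9) and those without 38.9% (n = 123). Most of the former are intronless, and intron-containing RP genes had a median of 38.2% against 43.1% for intronless ones, introns included. Intronless RP genes with a *wt* peak had a median GC content of 43.6% (n = 7) and those without 42.9% (n = 37). Their median GC skew on the coding strand, (G − C)/(G + C), was 0.049 and 0.052.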
